A study of Mus musculus with 6 samples.

Results

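The Schlafen genes of the mouse are a family clustered on chromosome 11, and 7 of them were followed here: Slfn1, Slfn2, Slfn3, Slfn4, Slfn5, Slfn8 and Slfn9. They were chosen by name, after the difference in Slfn2 between cells that took up much and little acetylated low-density lipoprotein (acLDL) had been seen in these same libraries. The values of that contrast are therefore given for the family as a description, without a test. All 7 were among the 53379 genes counted, 6 were in the set of 15973 protein-coding genes and 4 (Slfn2, Slfn3, Slfn8 and Slfn9) passed the filter on low counts that left 12572 genes. A gene can pass this filter through high values in 1 group alone, so the 4 do not stand for the family.

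The cells were 4T1-T, a single sub-clone of the mouse mammary carcinoma line 4T1 that is able to form vessel-like networks, a property called vasculogenic mimicry (VM). All libraries came from cells seeded at 40% confluency, kept overnight in Opti-Mem with 0.3% BSA in place of serum, given 10 ug/mL of Alexa-488 acLDL for 4 h and returned to complete medium (RPMI with 10% FBS) for 1 h. Fluorescence sorting then took the brightest 25% as acLDL-high and the dimmest 25% as acLDL-low, so both groups carry the same genotype and treatment and differ by the gate. There were 3 acLDL-low and 3 acLDL-high libraries, numbered 1 to 3 in each group. The purpose was to ask which genes go with acLDL uptake, an endothelial property. The work was done on 3 separate occasions, and the replicate number was taken as the occasion because the same-numbered libraries of both groups deviated together. The libraries are thus 3 pairs from 1 sub-clone, and unsorted cells, or cells without acLDL, were not analysed here.

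Total counts lay between 70263372 and 94216786 per library, so that 3 counts, the floor used here, correspond to 0.0323 to 0.0429 CPM (counts scaled to a common library size of 1e+06). Epithelial markers were abundant, with a summed level of 3390 to 6210 CPM over 10 genes. Endothelial markers summed to 1.51 to 2.64 CPM over 8 genes, of which 2 had 0 counts in all 6 libraries. Leukocyte markers summed to 19.5 to 22.3 CPM in acLDL-low and 20.4 to 24.7 CPM in acLDL-high cells over 18 genes, of which 6 had 0 counts throughout (among them Adgre1 of macrophages, Cd3g of T cells and S100a9 of neutrophils). The labelled cell type, cancer cells of a mammary carcinoma, was thus matched by its epithelial markers. Leukocyte and endothelial markers summed to far less. Most of the leukocyte sum was Cd14 (mean 10.7 CPM), Cd68 (mean 8.17 CPM) and Mrc1 (mean 2.41 CPM).

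Schlafen proteins share a core domain with a nuclease-like fold. The short members (Slfn1 and Slfn2) hold little else, the intermediate ones (Slfn3 and Slfn4) carry a further domain, and the long ones (Slfn5, Slfn8 and Slfn9) end in a helicase-like domain. The family is known for restraining growth in thymocytes and T cells, from which its German name for sleep derives, and several members are induced by type I interferon. Slfn2 is known for keeping T cells quiescent and for protecting transfer RNAs from cleavage.

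The promoters of the 4 members with measurable counts are shown because these genes lie in 1 cluster and not all of them had the same profile. RefSeq promoters on GRCm38.p6, each covering 250 bases before and 50 after the start, were found for 7 of 7 members. Capitals mark a match to ACTTCCTG, to the core of the interferon-stimulated response element (GAAANNGAAA) or to kappaB, searched on both strands. A match on the opposite strand appears as its reverse complement.
Slfn2 promoter, chr11:83064862-83065161, forward strand: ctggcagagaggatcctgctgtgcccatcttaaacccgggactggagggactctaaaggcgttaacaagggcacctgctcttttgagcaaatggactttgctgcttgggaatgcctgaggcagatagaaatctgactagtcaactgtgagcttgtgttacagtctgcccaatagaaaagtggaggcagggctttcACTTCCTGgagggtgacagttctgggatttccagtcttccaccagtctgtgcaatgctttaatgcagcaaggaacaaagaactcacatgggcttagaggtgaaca
Slfn3 promoter, chr11:83191080-83191379, forward strand: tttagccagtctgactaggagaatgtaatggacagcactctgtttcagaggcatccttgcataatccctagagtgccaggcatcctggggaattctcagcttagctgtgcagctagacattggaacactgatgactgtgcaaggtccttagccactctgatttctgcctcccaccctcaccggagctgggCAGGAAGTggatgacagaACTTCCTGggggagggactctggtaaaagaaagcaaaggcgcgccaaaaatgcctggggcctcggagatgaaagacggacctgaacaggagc
Slfn8 promoter, chr11:83020761-83021060, reverse strand: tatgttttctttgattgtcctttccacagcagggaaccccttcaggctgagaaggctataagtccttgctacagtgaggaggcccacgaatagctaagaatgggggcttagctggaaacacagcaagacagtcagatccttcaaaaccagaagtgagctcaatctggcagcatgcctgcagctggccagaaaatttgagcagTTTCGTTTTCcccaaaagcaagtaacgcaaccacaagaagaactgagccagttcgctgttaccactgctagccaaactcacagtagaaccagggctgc
Slfn9 promoter, chr11:82991781-82992080, reverse strand: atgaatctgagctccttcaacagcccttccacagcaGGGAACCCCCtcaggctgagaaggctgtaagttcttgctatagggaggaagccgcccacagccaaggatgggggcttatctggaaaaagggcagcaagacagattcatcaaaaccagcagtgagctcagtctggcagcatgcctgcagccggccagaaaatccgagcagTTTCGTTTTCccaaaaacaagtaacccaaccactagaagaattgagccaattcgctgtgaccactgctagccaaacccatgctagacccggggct

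The response element core occurred in the promoters of Slfn5, Slfn8 and Slfn9, at -155, -48 and -45 from the start, where 3.44% of 32851 promoters held it. The letters ACTTCCTG occurred in those of Slfn1, Slfn2, Slfn3 and Slfn4, at -74, -55, -60 and -73, with a further match at -42 in Slfn3, where 3.33% of promoters held them. A kappaB match lay at -214 in Slfn9 and at -43 in Slfn1, and 8.46% of promoters held one. The gamma-activated sequence TTCNNNGAA was in none of the member promoters and in 8.30% of all. These motifs were picked after the member sequences had been looked at, ACTTCCTG because it recurred in them, and a match is a description of letters and not of binding. The Slfn8 and Slfn9 promoters were identical at 80.8% of aligned positions, while every other pair of members lay between 46.5% and 53.0%.

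Levels were compared between genes per kilobase of exon (FPKM). Slfn9 was the most abundant member at 10.7 ± 3.06 FPKM (SD, n = 6 libraries), ahead of Slfn3 at 3.36 ± 0.804, Slfn2 at 2.68 ± 2.41 and Slfn8 at 2.57 ± 0.785. The lowest Slfn9 library (6.91 FPKM) lay above the highest library of any other member, the 6.41 FPKM of Slfn2 in acLDL-high 1. Slfn3, Slfn2 and Slfn8 overlapped in their ranges and were not separated by their spread. Slfn4, Slfn5 and Slfn1 followed at or near 0.

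Among the long members, Slfn9 (chr11:82978390-82991830, reverse strand) had 58.2, 83.3 and 41.2 CPM in acLDL-low 1, 2 and 3 and 70.7, 82.7 and 45.4 CPM in acLDL-high 1, 2 and 3. The groups overlapped at 60.9 ± 21.2 and 66.2 ± 19.0 CPM (SD, n = 3), and the level followed the occasion rather than the gate, with both libraries of occasion 2 highest and both of occasion 3 lowest. The log2 differences of acLDL-high minus acLDL-low within pairs were 0.28, -0.01 and 0.14.

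Slfn8 (chr11:83002158-83020810, reverse strand), the neighbour of Slfn9, had 11.2, 6.54 and 10.9 CPM in acLDL-low and 14.9, 7.02 and 12.5 CPM in acLDL-high cells. Here both libraries of occasion 2 were the lowest, the reverse of Slfn9, and the groups overlapped. The within-pair log2 differences were 0.41, 0.10 and 0.19, each toward acLDL-high. Slfn5 (chr11:82951349-82964840, forward strand), the remaining long member, had a single count in acLDL-low 2 and 0 counts in the other libraries, which is under the floor.

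Of the intermediate members, Slfn3 (chr11:83191330-83215154, forward strand) had 10.1, 14.5 and 8.43 CPM in acLDL-low and 11.5, 15.0 and 9.25 CPM in acLDL-high cells. Its order over the occasions was that of Slfn9, highest in occasion 2 and lowest in occasion 3, although the genes lie toward opposite ends of the cluster. The within-pair log2 differences were 0.18, 0.04 and 0.13. Slfn4 (chr11:83175186-83190216, forward strand) had 4, 2 and 6 counts in acLDL-low and 6, 8 and 12 in acLDL-high cells, 12 and 26 in all, too few for the filter.

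The short member Slfn2 (chr11:83065112-83070678, forward strand) had 5.06, 0.322 and 2.66 CPM in acLDL-low and 10.7, 0.793 and 7.22 CPM in acLDL-high cells. Within each occasion the acLDL-high library was higher, by 2.11-fold, 2.46-fold and 2.72-fold. Taken without their pairing the groups overlapped, because the acLDL-high library of occasion 2 lay below the acLDL-low libraries of occasions 1 and 3. The counts behind the low occasion were 26 and 57, against 186 to 848 in the other libraries. Slfn1 (chr11:83116849-83122670, forward strand), the other short member, had 0 counts in all 6 libraries, under the floor of 3 counts per library.

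**Figure D1:**
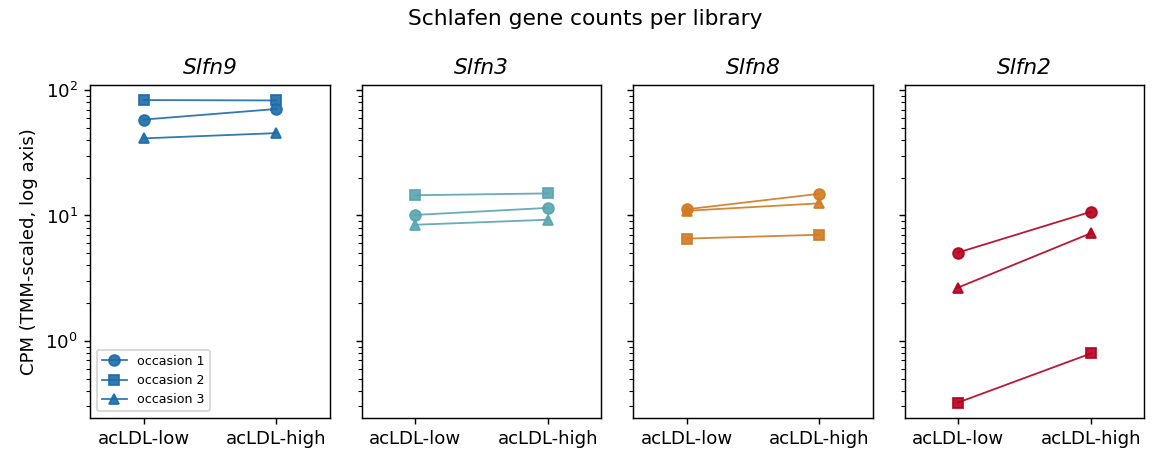
CPM of the 4 members with measurable counts in each library, on a log axis, with acLDL-low and acLDL-high libraries of 1 occasion joined by a line. Slfn2 runs from 0.322 to 10.7 CPM and climbs along every line, while Slfn9 stays between 41.2 and 83.3 CPM.

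In the contrast that chose the family, the mean log2 difference of acLDL-high minus acLDL-low cells was 1.25 for Slfn2 (SD 0.18, n = 3 pairs). It was 0.23 for Slfn8 (SD 0.16), 0.14 for Slfn9 (SD 0.15) and 0.12 for Slfn3 (SD 0.07). By size of increase these ranked 19, 993, 1824 and 2084 among the 12572 genes, whose median difference was 0.002. Slfn2, Slfn3 and Slfn8 were higher in all 3 pairs, as were 20.9% of genes, and Slfn9 in 2 of 3. Over all genes the test of this contrast called 431 higher (3.43%) and 166 lower (1.32%) in acLDL-high cells at an adjusted p under 0.05, and nothing is read from these shares for the members. Without occasion 3 it called 126 in both directions together. In these bulk libraries, more cells with Slfn2 RNA and more Slfn2 RNA per cell cannot be told apart.

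**Figure D2:**
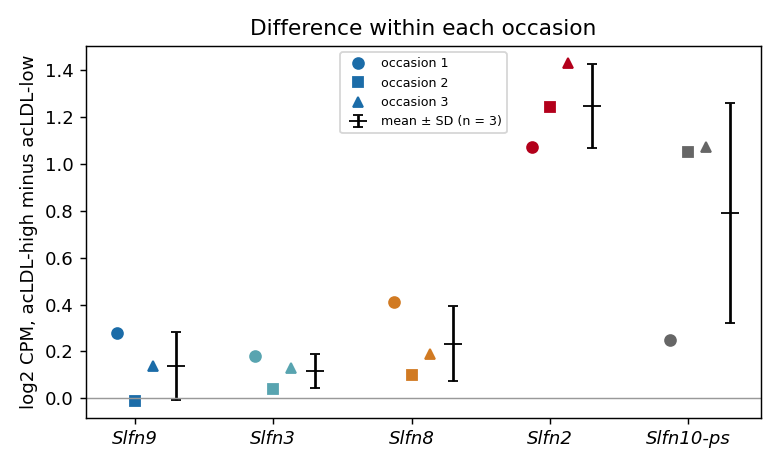
Log2 difference in CPM, acLDL-high minus acLDL-low, for each pair (points) with the mean and SD over 3 pairs, for the 4 members and the pseudogene Slfn10-ps. The 3 Slfn2 pairs lie between 1.07 and 1.43, above all pairs of Slfn3, Slfn8 and Slfn9.

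The composition of the family's RNA changed with these levels. Summed over members, the family had 18.5, 20.0 and 13.6 FPKM in acLDL-low and 25.2, 20.4 and 17.7 FPKM in acLDL-high cells. Slfn9 made up 52.7%, 69.8% and 50.6% of that sum in acLDL-low and 46.9%, 67.8% and 42.9% in acLDL-high cells. This share was lower in each acLDL-high library than in its pair, in a sum that includes Slfn2, whose difference chose the family. The Slfn9 level itself differed by 0.28, -0.01 and 0.14 in log2 CPM within pairs. Slfn2 made up 16.4%, 0.966% and 11.7% in acLDL-low and 25.4%, 2.33% and 24.5% in acLDL-high cells. Its share lay above those of Slfn3 and Slfn8 in acLDL-low 1, acLDL-high 1 and acLDL-high 3 and below both in the other libraries, which follows in part from the values that chose it.

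The occasions were compared next, with the replicate terms of the same fit, a contrast that does not use the gate. Averaged over both populations, log2 CPM at occasions 1, 2 and 3 was 2.88, -0.91 and 2.14 for Slfn2, 3.69, 2.77 and 3.55 for Slfn8, 3.43, 3.88 and 3.15 for Slfn3 and 6.00, 6.38 and 5.43 for Slfn9. The spread from the highest to the lowest occasion was 3.79 for Slfn2, larger than its difference between the populations in every pair. That Slfn2 varied more between replicates than between populations was known when the family was chosen, so its spread is described without a test. It was 3.87 in the acLDL-low and 3.71 in the acLDL-high libraries taken alone, and 0.302% of genes had a larger one.

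Slfn9, Slfn8 and Slfn3 had spreads of 0.94, 0.93 and 0.74 on the log2 scale, against a median of 0.45 over all genes, and 18.9%, 19.3% and 27.6% of genes had larger ones. Each differed between occasions in edgeR's quasi-likelihood F test, with adjusted p of 2.11e-07 for Slfn9, 5.75e-06 for Slfn8 and 1.73e-05 for Slfn3. The error of this test was the spread left after gate and occasion, with each occasion represented only by its acLDL-low and acLDL-high libraries. These p-values therefore do not measure the spread between repeat cultures of an occasion. The same test called 9802 genes (78.0%), so a call of this kind was common. Without occasion 2 it called 6034. For Slfn8 it rested on occasion 2, without which the spread was 0.14 (adjusted p = 0.172). Without occasion 2 the spread of Slfn2 was 0.74, that of Slfn3 0.28 and that of Slfn9 0.57. Without occasion 3 those of Slfn3 and Slfn9 were 0.45 and 0.37, and both differed between occasions in each of these fits (adjusted p of 0.0102 or less).

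**Figure D3:**
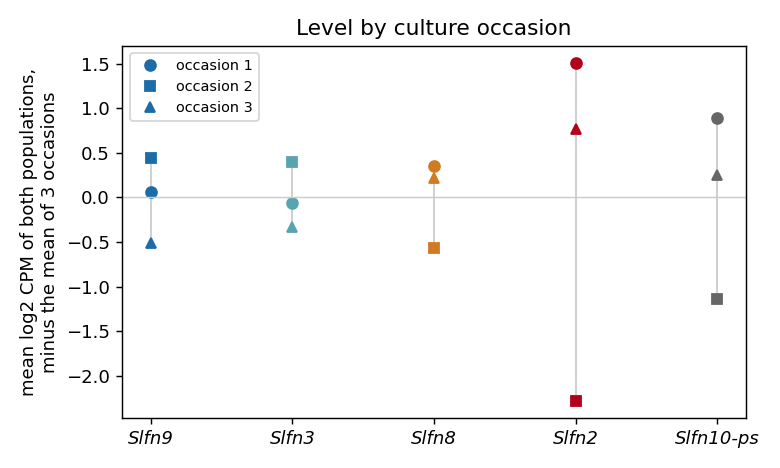
Mean log2 CPM of both populations at each occasion, centred on the mean of the 3 occasions, for the 4 members and Slfn10-ps. Occasion 2 (squares) is lowest for Slfn2, Slfn8 and Slfn10-ps and highest for Slfn9 and Slfn3.

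The members did not share 1 profile. The mean of occasions 1 and 3 minus occasion 2 was 3.42 for Slfn2 and 0.86 for Slfn8, but -0.60 for Slfn3 and -0.66 for Slfn9. Over all genes, occasion 2 was the lowest in 39.9% and the highest in 39.8%. Over the 6 libraries, the root mean square distance between centred log2 CPM profiles was 0.12 for Slfn3 and Slfn9, 0.69 for Slfn3 and Slfn8, 0.74 for Slfn8 and Slfn9 and 1.34 for Slfn2 and Slfn8. Slfn2 was farthest from Slfn3 (1.99) and Slfn9 (2.00). The count of Slfn9 stood at 4.89 to 6.17 times that of Slfn3 in every library, while its ratio to Slfn8 was 12.8 and 11.8 at occasion 2 and 3.63 to 5.19 elsewhere.

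Among 10537 other genes, those with the profile nearest to Slfn2 were Sod3, an extracellular superoxide dismutase, and Gbp4, an interferon-induced GTPase, both at a distance of 0.43, and Phactr1, a regulator of actin and protein phosphatase, at 0.48. Gbp4 lay 3.57 and 2.63 lower in log2 CPM at occasion 2 than at occasions 1 and 3, and its High minus Low difference was 0.55. Nearest to Slfn8 were Glrx (0.04), Samd14 (0.05) and Il1r1 (0.06), a glutaredoxin, a protein with a sterile alpha motif domain and the receptor of interleukin 1. Lsm6, Ncapd3 and Snf8 were nearest to Slfn3, each at 0.03. Ndufb3 (0.04), Rnf39 (0.04) and Tipin (0.06) were nearest to Slfn9. These distances cover 6 libraries of 3 occasions, so that many genes can lie close to a profile, and those of Slfn2 were larger than those of the other members.

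The chaperone gene Unc45b lies beside the cluster. It had 4 and 2 counts in acLDL-high 1 and 3 and 0 in the other libraries, and Slfn14, a further family gene beyond Slfn3, had 2 counts in each of those 2 libraries and 0 elsewhere. Slfn5os, antisense to Slfn5, had 0 counts throughout. Slfnl1, a Schlafen-like gene on chromosome 4, had 0, 4 and 3 counts in acLDL-low and 10, 7 and 5 in acLDL-high cells.

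The pseudogene Slfn10-ps (chr11:83028130-83040042, reverse strand), between Slfn8 and Slfn2, was not in the protein-coding table and was not tested. It had 1.85, 0.322 and 0.886 CPM in acLDL-low and 2.20, 0.695 and 1.88 CPM in acLDL-high cells. Both libraries of occasion 2 were lowest, as for Slfn8 and Slfn2, and the groups overlapped. The within-pair log2 differences were 0.25, 1.05 and 1.07. Gm11425, a pseudogene between Slfn8 and Slfn10-ps with 46 to 59 counts per library, did not share this pattern, with a difference of 0.06 between occasions 1 and 3 and occasion 2.

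**Figure D4:**
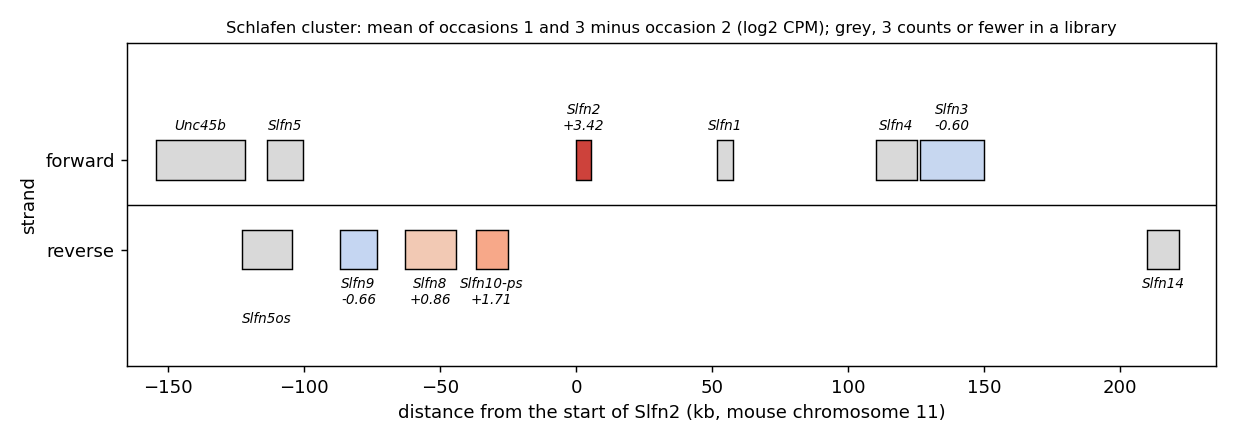
Genes of the Schlafen cluster by distance in kb from the start of Slfn2 on chromosome 11, forward strand above and reverse below, coloured by log2 CPM at occasions 1 and 3 minus occasion 2, with genes of 3 counts or fewer in a library in grey, for Schlafen-named genes and Unc45b. Slfn8 (0.86), Slfn10-ps (1.71) and Slfn2 (3.42), all positive, lie between Slfn9 (-0.66) and Slfn3 (-0.60).

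Near-identical copies limit how far counts of neighbours can be told apart. Of the stretches of 50 bases, the length of 1 read, 14.6% in Slfn8 transcripts and 19.7% in Slfn10-ps transcripts also occurred in another gene, largely in each other or in Slfn9. For Slfn9 the share was 11.9%, for Slfn3 16.0% (with Slfn4 and the model gene Gm11427) and for Slfn2 4.27% (with Slfn4). The small values of Slfn4 and Slfn10-ps are therefore uncertain. Slfn2 shared no exon with another gene, and Gm20234, on the opposite strand within its span, had 1 to 14 counts per library.

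Since Schlafen genes are interferon-responsive, the members were set beside lists of that pathway. Of 22 genes for interferon ligands, receptors and signal transducers, 15 could be tested and 2 (13.3%, against 3.43% of all genes) rose in acLDL-high cells in edgeR's quasi-likelihood test: Il10rb, a shared chain of the lambda interferon receptor, by 0.29 (SE 0.07, adjusted p = 0.0418) and Ifngr2, a chain of the gamma interferon receptor, by 0.19 (SE 0.05, adjusted p = 0.0368). None fell in edgeR or DESeq2 (1 at an unadjusted p under 0.05 in edgeR), and the median was 0.08 on the log2 scale. Both calls were lost without occasion 3 and under DESeq2. Of the 7 ligand genes in the list, Ifnb1 and Ifna2 had 2 counts each, both in acLDL-low 1, and Ifng, Ifna1, Ifna4, Ifnl2 and Ifnl3 had none, so that all 7 were under the floor of 3 counts in every library.

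Of 30 interferon-induced genes, 29 could be tested, and 9 rose in acLDL-high cells (31.0%, against 3.43% of all genes) while none fell in edgeR, also at an unadjusted p under 0.05 (0 genes), or in DESeq2. The median log2 fold change was 0.29, and 21 of the 29 were higher in all 3 pairs, against 20.9% of all genes. Zbp1, a sensor of nucleic acids, rose by 0.72 (SE 0.19, adjusted p = 0.0481) and Rsad2, the antiviral enzyme viperin, by 0.60 (SE 0.15, adjusted p = 0.0375). Ifit1, which binds foreign RNA, rose by 0.54 (SE 0.14, adjusted p = 0.0453) and Gbp2, a guanylate-binding GTPase, by 0.51 (SE 0.07, adjusted p = 0.00138). Without occasion 3, 5 passed, and without the replicate block in the fit 0 passed in any list. The rise of interferon genes in this contrast was known before the list was set, so it is not independent of the choice.

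The interferon-induced genes were then read by occasion. In the same test of occasions 26 of 29 were called (89.7%), near the 78.0% of all genes and the 90% of epithelial markers. Their lowest level was at occasion 2 for 23 (79.3%, against 39.9% of all genes). Slfn2 and Slfn8 shared this, and Slfn3 and Slfn9 did not. The list medians in log2 CPM were 0.31 for occasion 1 minus occasion 2 and 0.82 for occasion 3 minus occasion 2. For Slfn2 these differences were 3.79 and 3.05, with occasion 1 highest. Usp18, the protease that removes ISG15, was 2.92 higher in log2 CPM at occasions 1 and 3 than at occasion 2, beside 3.42 for Slfn2. At occasion 2 it had only 0.099 CPM in acLDL-low and 0.167 CPM in acLDL-high cells, so the 2.92 rests on few counts. The difference of Usp18 between the populations was -0.05 (SE 0.23, adjusted p = 0.94). Of the ligands, receptors and transducers 11 of 15 were lowest at occasion 2. Whether interferon signalling had a part in the Slfn2 values was not tested.

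**Figure D5:**
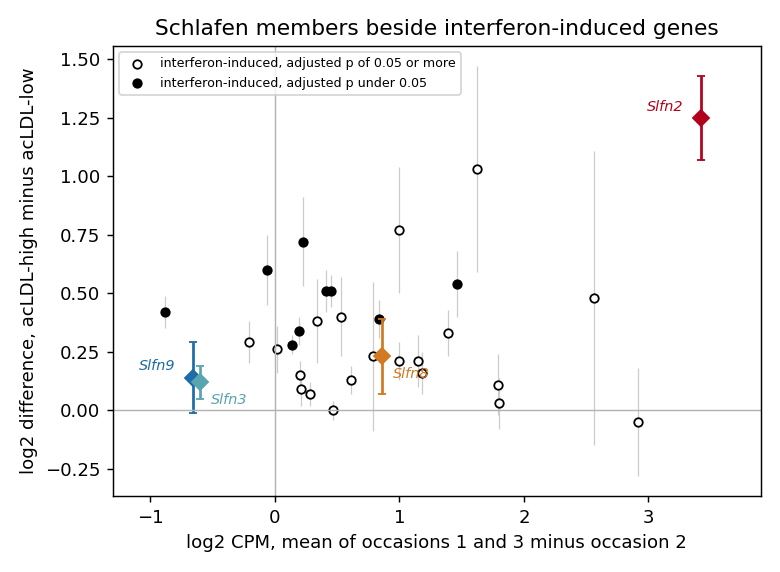
Log2 difference acLDL-high minus acLDL-low (vertical) against log2 CPM at occasions 1 and 3 minus occasion 2 (horizontal) for 29 interferon-induced genes (circles, SE, filled where the adjusted p is under 0.05) and 4 Schlafen members (diamonds, SD of 3 pairs). Slfn2 lies at 3.42 and 1.25, beyond every circle on both axes, and Usp18 is the circle farthest to the right at 2.92. The family was chosen with the Slfn2 difference and its variation between replicates known, so its place is a description.

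Schlafen genes are abundant in blood cells, so leukocyte markers were read beside Slfn2. Of 18 markers 6 could be tested, and 1 was called higher (16.7%, against 3.43% of all genes). Cd14, a receptor for lipopolysaccharide, rose in acLDL-high cells by 0.32 (SE 0.07, adjusted p = 0.0246), a call lost without occasion 1 and without occasion 3, and Cd68, a lysosomal protein, had a difference of -0.28 (adjusted p = 0.201). Ptprc, which encodes the pan-leukocyte antigen CD45, had 43 counts over all libraries, at 0.0529, 0.149 and 0 CPM in acLDL-low and 0.0628, 0.222 and 0.0646 CPM in acLDL-high cells. Of the 6 tested markers 4 had, like Slfn2, their lowest mean log2 CPM at occasion 2 (66.7%, against 39.9% of all genes). The mean of occasions 1 and 3 was higher by 0.40 for Cd14, 0.92 for S100a8, 0.23 for Cd79a and 0.10 for Cd68. The other 2, Ptprc and Mrc1, were highest at occasion 2 (-1.72 and -0.46). The test of occasions called 2 of the 6, Cd14 and Ptprc (33.3%, against 78.0% of all genes), and not S100a8, Cd79a or Cd68. The summed leukocyte level varied between 19.5 and 24.7 CPM, and Slfn2 between 0.322 and 10.7 CPM. Most of that sum was Cd14 (mean 10.7 CPM) and Cd68 (mean 8.17 CPM), while Ptprc averaged 0.0919 CPM. The sum thus mainly follows Cd14 and Cd68, and a part of leukocyte RNA in the Slfn2 values was not tested.

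The other marker lists were read in the same way. Of 10 epithelial markers 3 rose in acLDL-high cells (30.0%, against 3.43% of all genes), and without occasion 3 the count was 1. None fell, 0 also at an unadjusted p under 0.05 in edgeR and in DESeq2. They were the tight junction genes Cldn4 (0.53, edgeR adjusted p = 0.000832) and Cldn7 (0.30, adjusted p = 0.0102) and the splicing factor Esrp1 (0.22, adjusted p = 0.0456). Of 8 endothelial markers 3 could be tested and none was called by edgeR or DESeq2, with 0 at an unadjusted p under 0.05 in edgeR. Among these Tie1, an endothelial receptor, had a difference of 0.10 (adjusted p = 0.846) and Pecam1, the antigen CD31, of -0.48 (adjusted p = 0.515). Between occasions, 9 of the 10 epithelial markers were called (90%, against 78.0% of all genes). Occasion 2 was lowest for 1 of them (10%, against 39.9% of all genes) and highest for 6. Of the 3 endothelial markers 1 was called, and occasion 2 was lowest for 0 and highest for 2.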

How the data were processed

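RNA-Seq of 6 libraries was used. Per the labels and the paper's methods, stranded mRNA libraries were sequenced as paired reads of 50 bases, and the authors aligned them to mm10 with STAR (version 2.5.2a), counted them with featureCounts (version 1.4.3-p1) and deposited raw counts per gene. The annotation release, the strand setting and the treatment of reads with several matches are not given in the sources used here. The deposited comparison, made with DESeq2 (version 1.20.0), holds the authors' fold changes and p-values, which were not used. Its gene list defined the 15973 protein-coding genes.

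Counts were tested with edgeR (version 4.0.16, R 4.3.3): filterByExpr, TMM scaling, and glmQLFit and glmQLFTest with the replicate number as a block, with Benjamini-Hochberg adjustment over 12572 genes and a threshold of 0.05. Tests are two-sided, or F tests over the replicate terms for occasions. Same-numbered libraries correlated in their deviations from the group means (0.795, 0.846 and 0.799, against -0.557 to -0.0882 for other pairs). No label says that the occasions used separate thaws or passages, so p-values of acLDL-high against acLDL-low measure the spread between these pairs. Those of occasions are set against the spread left after gate and occasion, with no repeat of a gate within an occasion. Log2 CPM used a prior count of 2. FPKM is CPM per kilobase of GENCODE M21 exons on GRCm38 (mm10), which held 53274 of the gene IDs. Profile distances used genes with a mean log2 CPM of at least 1. Promoter identity is that of a global alignment, with gaps counted as positions. The floor covers counting error only, while each SD is the spread over the pairs or libraries named and each SE comes from the edgeR fit.

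Named genes are the members and other Schlafen genes, a flanking gene, the 3 nearest profiles per member and, per list, up to 4 called genes with the largest change, or the 2 most abundant where fewer than 2 were called. Usp18, Gm11425, Ptprc, S100a8, Cd79a, Mrc1 and the genes named for counts of 0 to 2 were chosen after their values were seen. Some genes that the rule selects are not reported here. The members and the 5 lists were chosen with earlier results of these data known. The alternatives were no block, DESeq2 size factors, DESeq2 (version 1.42.0) with the block, no filter, all genes of the count table, a prior count of 0.5, each population alone for the occasion spread, and leaving out each pair. The fit was tested on simulated data of 12419 genes, of which 200 were given a log2 change of 1 in each comparison. The test of acLDL-high against acLDL-low recovered 189 of these and made 17 false calls. The test of occasions recovered 186 and made 32 false calls. In both tests false calls were a larger share of all calls than the adjusted p threshold allows, and more so for occasions.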

Additional observations from a re-analysis of the deposited data

Results flagged for a closer look

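3 genes within the cluster stood outside the protein-coding genes of the comparisons and had more than 3 counts in every library. Slfn10-ps had 628 counts over the 6 libraries, and its levels are given above. Gm11425 had 305 counts, between 46 and 59 per library, and 1190001M18Rik had 108 counts, between 14 and 23 per library. Their log2 differences of acLDL-high minus acLDL-low were 0.79 (SD 0.47, n = 3 pairs), -0.10 (SD 0.13) and -0.31 (SD 0.24), in that order, and none was tested.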

How the results depend on the processing

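The High minus Low difference of the 4 members kept its direction under every alternative run. Leaving out each pair in turn, it lay between 1.15 and 1.33 for Slfn2, 0.15 and 0.30 for Slfn8, 0.06 and 0.21 for Slfn9 and 0.09 and 0.16 for Slfn3. Without the replicate block it was 1.22, 0.27, 0.13 and 0.11. In that fit 0 of 12329 genes passed (edgeR, with 45 at an unadjusted p under 0.05), against 597 with the block and 505 with DESeq2, and 0 genes of the epithelial, leukocyte and both interferon lists were called higher. Without a filter on low counts 932 of 15973 genes passed. Leaving out each pair gave 126 to 869 genes, with the fewest without pair 3. It gave 0 to 3 called interferon ligands, receptors and transducers, 5 to 10 interferon-induced genes, 0 to 1 leukocyte markers higher and 0 to 1 lower, and 1 to 3 epithelial markers higher. DESeq2 with the block called 0 interferon ligands, receptors and transducers. Leaving out each pair, 6034 to 8213 genes were called between occasions, against 9802 with all pairs, and the Slfn8 spread lay between 0.14 and 0.93, past the threshold except without pair 2. The Slfn9 and Slfn3 spreads were called in each fit with a test. The cause of these shifts was not tested. With 57 counts or fewer per library at occasion 2, Slfn2 was measured there less precisely than elsewhere, and for Slfn1, Slfn4 and Slfn5 depth set the limit.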
